A study of Homo sapiens with 8 samples.

Results

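Upstream open reading frames (uORFs) are short reading frames in the 5′ leader of a messenger RNA, ahead of the main coding sequence. A ribosome that scans from the cap and begins at an upstream ATG usually ends at the stop codon of the short frame, and has to reinitiate before it can translate the protein of the gene. Purines 3 bases before the ATG (position -3) and a G directly after it (position +4) are the strongest elements of the sequence in which scanning ribosomes recognise a start. Many uORFs matter as positions that ribosomes occupy, while the peptide itself need not be kept in evolution.

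The uORFs described here begin with ATG and carry no sign of protein conservation in the deposited annotation. They were chosen as small open reading frames (smORFs) of the uORF location class whose first codon encodes methionine and whose mean PhyloCSF score, a measure of protein-like substitution across species, was 0 or lower or was missing. These member uORFs number 5797 of the 24199 smORFs with counts, or 24.0%. No score cell was empty. A further check found 48 member uORFs with a mean of exactly 0 and no finite maximum, and these were taken as unscored and kept. The threshold divides near neighbours. Just inside it stood uORFs of RAD23B (IEC_03243, -0.006) and TNRC6A (IEC_02074, -0.010), and just outside it those of BMP2 (IEC_04286, 0.010) and PLEKHO1 (IEC_03678, 0.012). RAD23B, a shuttle of ubiquitinated proteins, had 107 and 144 counts in undifferentiated cells and 16 and 48 in differentiated control, while TNRC6A had at most 4 counts in a library and PLEKHO1 none. A mean at or under 0 also did not make every stretch unconserved, since 709 member uORFs had a maximum PhyloCSF above 0.

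Ribosome profiling was carried out on Caco-2, an established human colon adenocarcinoma line that acquires features of absorptive enterocytes on differentiation. The 8 libraries form 4 groups of 2. These are undifferentiated cells, differentiated control cells given no micelles, and 2 differentiated groups given micelles. The first of those received taurocholate micelles (micelles without lipid), and the second lipid micelles with BSA, oleic acid and cholesterol. For its mass spectrometry the paper used Caco-2 cells in 4 like states. There, undifferentiated cells were taken earlier, and differentiated cells, controls included, stood overnight without serum. If these libraries were made likewise, time in culture and serum cannot be told apart from differentiation. Library totals ran from 506382 to 884711 smORF counts. The labels do not say that replicates were separate cultures, so p-values measure the spread between these libraries, which may be technical. Counts of a cell population cannot separate less RNA per cell from fewer cells that carry it, and ribosome footprints alone cannot separate more mRNA from more ribosomes on each mRNA. Levels are given as CPM, a count scaled to the normalised library total of the smORFs past the low-count filter. Summed over smORFs of proliferation marker genes (4 of 8 marker genes had any), undifferentiated libraries held 7294 and 7624 CPM and the 6 differentiated libraries 469 to 649. For enterocyte markers (4 of 10) the sums were 1447 and 1864 against 3131 to 5576 CPM. The goblet list (1 of 6, REG4) summed to 193 and 160 CPM before and 0 to 4.15 after. Fibroblast markers summed to 33.0 CPM or less and leukocyte markers to 11.7 CPM or less in each library. The part of these shifts in the results was not tested.

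The member uORFs lay in 3286 host gene entries, of which 1238 held more than 1. Their median length was 21 amino acids (quartiles 12 and 37), against 31 over all smORFs. The shortest had 6 amino acids, as 239 of them did, and the longest, in TST, had 148. Of the 5291 that could be placed in the transcript named in their identifier, 5236 (99.0%) were followed directly by a stop codon, most often TGA (2808) and less often TAA (1223) or TAG (1205). They began a median of 129 bases from the annotated 5′ end of that transcript. Of the 4763 in transcripts with a coding sequence, 4717 ended before it, at a median distance of 114 bases (quartiles 49 and 234), and 54.5% were the first ATG of the transcript. The start lay in the same frame as the coding start for 35.8% of these. In all, 5371 lay wholly in annotated untranslated regions and 17 touched an annotated coding base.

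Start windows of 12 member uORFs named in the results are printed 5′ to 3′ on the strand of the gene from the hg38 genome. They are not a representative sample, since most have a purine at -3. Of all member uORFs that could be read, 57.2% had it. Capitals mark the base at -3, the ATG and the base at +4.
SLC26A3 IEC_15717 (chr7:107794583-107803152, minus strand, spliced, rose on differentiation): atcttgAaaATGTaccactgt
HHLA2 IEC_06980 (chr3:108296542-108296574, plus strand, rose): ctgaatTcaATGTttattctt
GATM IEC_19594 (chr15:45380528-45396952, minus strand, spliced, rose): gattggAatATGCtttttgtg
PRLR IEC_20704 (chr5:35195591-35195659, minus strand, rose): gtgtagGaaATGCagaggagg
AIMP1 IEC_03241 (chr4:106315840-106316136, plus strand, fell): tctgaaGacATGCggggccac
SPAG5 IEC_15230 (chr17:28598972-28598998, minus strand, fell): cgggtgAacATGGcgtcctcg
UCP2 IEC_14869 (chr11:73981515-73981622, minus strand, fell): acacatAgtATGAccattagg
CLCN5 IEC_04147 (chrX:49922671-49923458, plus strand, spliced, first leader, fell): gctgtgTgaATGAagctctgc
CLCN5 IEC_04153 (chrX:50067627-50067644, plus strand, second leader, rose): aggcagAgaATGCagcaagtg
SPATS2L IEC_05209 (chr2:200306303-200306542, plus strand, first leader, fell): taggagAagATGAttctcttg
SPATS2L IEC_05559 (chr2:200378034-200378063, plus strand, second leader, rose): ataagaAggATGAagagctgg
SERPINA1 IEC_23107 (chr14:94388566-94388813, minus strand, spliced, highest level): ccaggtAcaATGActcctttc

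Frames of 9 codons or fewer can be read whole. Those of 3 member uORFs, which show how short the translated stretch can be, are printed without their stop codon, as deposited, with the ATG in capitals.
UBB IEC_10262 (chr17:16380934-16380954, plus strand): ATGaggaatttggggctcagt
CLCN5 IEC_04153 (chrX:50067627-50067644, plus strand): ATGcagcaagtgcccttc
RAD23B IEC_03243 (chr9:107283287-107283310, plus strand): ATGatggcggccaccatcctgtgg

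The member uORFs sat between unselected leader ATGs and coding starts in their sequence context. A purine at -3 was present in 57.2% of the 5187 with enough leader to read it (95% Wilson interval 55.9 to 58.6%), and a G at +4 in 35.7% (34.4 to 37.0%). Of the 8342 other ATGs in the leaders of the same transcripts, 52.5% had the purine and 27.8% the G. Of the 2985 coding starts of those transcripts, 82.8% had the purine and 46.2% the G. Both features met in 21.9% of the member uORFs, 15.2% of the other leader ATGs and 38.6% of the coding starts. This place in between was not particular to uORFs. Of 3990 smORFs with ATG outside the uORF class, 58.3% had the purine, 33.1% the G and 19.2% both. The 200 conserved ATG uORFs that could be read (mean PhyloCSF above 0) had the purine in 67.0% and the G in 49.5%, and these intervals lay above those of the member uORFs. These intervals cover counting error only, and overlapping frames share bases, so the shares are given without a test. With 1 smORF for each cluster of overlapping smORFs, the shares of the member uORFs were 59.9% and 38.05%.

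**Figure D1:**
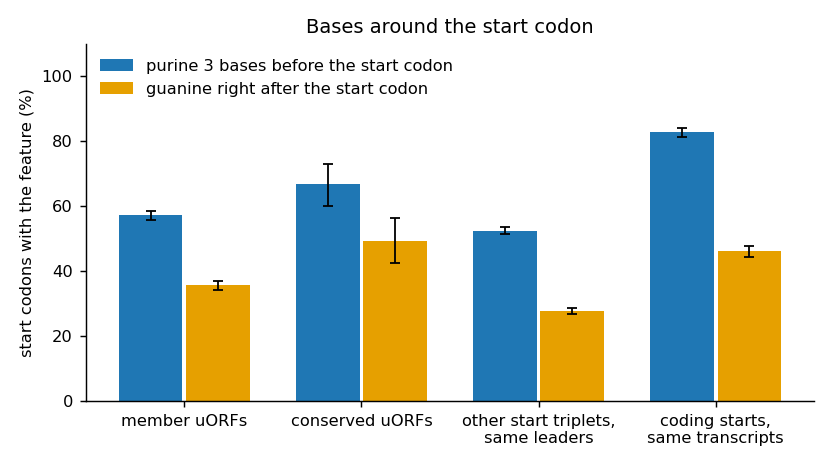
Share of start codons (y axis, percent) with a purine 3 bases before the start codon and with a guanine right after it, for member uORFs, conserved uORFs, other start triplets of the same leaders and coding starts of the same transcripts, with 95% Wilson intervals. Member uORFs (57.2% and 35.7%) stand above the other triplets (52.5% and 27.8%) and below the coding starts (82.8% and 46.2%).

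uORFs with another first codon were not a match for this comparison. Of those placed in their transcript, 47.8% began within 3 bases of its 5′ end, and 99.0% of the rest had a T at -3, the first base of every stop codon. Their frames run from stop to stop or from the transcript end, so their first codon is no start site. Of the member uORFs, 1.97% began that close to the 5′ end and 21.4% had a T at -3. Member uORFs also shared bases with other smORFs of any kind. Of them, 58.5% overlapped another smORF on the same strand and 1463 had the same stop codon as another smORF. How often that other smORF was a uORF with another first codon was not counted.

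Ribosome occupancy of the member uORFs spanned a wide range. Per kilobase of reading frame their median level was 203 CPM per kb (quartiles 65.5 and 521), against 169 over all smORFs. Short frames had the higher level per length: the median was 322 CPM per kb at 6 to 10 amino acids, 180 at 21 to 40 and 60.7 at 81 to 150. Frame length is the divisor of this level, so frames of unlike length are not on an equal footing. This also bears on the comparison with all smORFs, whose median length was 31 amino acids against 21. By start context, the median was 234 with both the purine and the G, 193 with one of them and 217 with neither. In total 3851 (66.4%) reached 10 counts in at least 1 library and 1421 (24.5%) in all 8, compared with 71.5% and 27.4% over all smORFs. A further 383 had no count in any library. The catalogue of smORFs was built from several cell lines, of which Caco-2 is one.

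The highest occupancy by mean CPM, at 1 uORF for each host gene, was on the uORF of SERPINA1. This gene encodes the protease inhibitor alpha-1-antitrypsin, and its uORF had 1128 and 803 counts in undifferentiated cells, 1891 and 3374 in differentiated control, 2742 and 3777 with micelles without lipid and 4280 and 5102 with lipid micelles. Every differentiated library was above both undifferentiated ones. The next were C1orf43 (mean 1466 CPM over the 8 libraries), S100A14, an epithelial calcium-binding protein (1267 CPM), and AGT, the angiotensin precursor (1068 CPM). NFE2L1, a stress-responsive transcription factor, KIAA1191, HAVCR1 and the tetraspanin TSPAN8 followed at 1025, 989, 953 and 882 CPM. Per length, S100A14 (42235 CPM per kb), C1orf43 (40723) and SERPINA1 (39094) led these 8, while AGT, with 71 amino acids, had 5012. The 10 highest member uORFs took 7.16% and the 100 highest 24.4% of all counts in member uORFs. Between differentiated control and undifferentiated cells, 5 of these 8 rose, with log2 fold changes of 1.34 (SERPINA1) to 2.30 (AGT), while C1orf43 (-0.07), S100A14 (0.18) and TSPAN8 (0.11) did not pass the test.

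Member uORFs held 17.8% and 17.8% of all smORF counts in undifferentiated cells, 18.9% and 19.2% in differentiated control, 18.8% and 18.5% with micelles without lipid and 17.9% and 18.6% with lipid micelles. All 6 differentiated libraries lay above both undifferentiated ones, by 0.85 percentage points on average (2-sided exact permutation test over libraries, p = 0.0357, the smallest that 2 against 6 allows). For 2 against 2 the smallest possible p is 0.333, which differentiated control against undifferentiated cells gave. Of the counts in the uORF class alone, member uORFs held 22.4% and 22.9% in undifferentiated cells and 24.0% to 27.0% in differentiated ones (exact permutation p = 0.0357). The complement was mainly the uORFs with another first codon, which held 60.7% and 58.4% of all smORF counts before and 49.2% to 55.4% after differentiation. The direction of the member share depended on which smORFs were summed. In 405 host genes, member uORFs and uORFs with another first codon were both present with no overlap. There the share of the member uORFs was lower in differentiated cells, at 51.0% and 51.0% against 40.6% to 47.9%. This set was chosen after seeing the data, so its difference is given without a test. Among smORFs that overlap no other, the 2 groups overlapped (25.9% and 27.2% against 24.8% to 27.9%, exact permutation p = 0.821). With 1 smORF per overlap cluster, the 6 differentiated libraries were higher by 0.39 percentage points on average (exact permutation p = 0.5). The separation of the main share thus did not hold once overlapping smORFs were reduced.

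The number of member uORFs with 10 counts or more followed library depth, from 2252 in the library of 506382 counts to 2979 in that of 884711. When each library was thinned to 506382 counts, 2192 and 2202 were detected in undifferentiated cells, 2252 and 2250 in differentiated control, 2181 and 2175 with micelles without lipid and 2087 and 2150 with lipid micelles. After thinning, the lipid micelle libraries had the fewest detected member uORFs, while before it their mean was the highest.

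**Figure D2:**
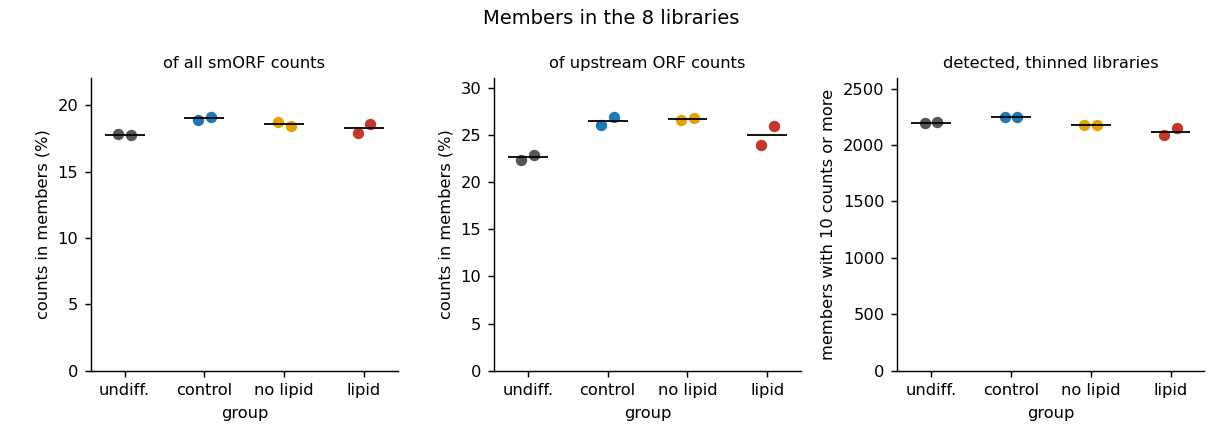
Share of all smORF counts (left) and of uORF class counts (centre) in member uORFs, in percent, and number of member uORFs with 10 counts or more after thinning to 506382 counts (right), for the 2 libraries of each group (undiff. = undifferentiated, control = differentiated control, no lipid = micelles without lipid, lipid = lipid micelles); points are libraries and lines are means. Undifferentiated libraries lie lowest in the left and centre plots, at 17.8% and at 22.4% and 22.9%.

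Ribosome occupancy differed between differentiated control and undifferentiated cells on 949 of the member uORFs tested. Higher and lower calls were near equal in number, although the count depended on the method. Of the 5797, 3321 passed the filter on low counts and were tested, and 949 of these were called (edgeR, adjusted p under 0.05 and a log2 fold change of at least 1 in size), or 28.6%. Over all 15182 smORFs tested the share was 33.3%. DESeq2 called 598 of the member uORFs (273 lower), and 284 were called when 10 counts in every library were required. Of the member uORFs 487 were higher in differentiated control cells (14.7%, against 17.7% of all smORFs) and 462 were lower (13.9%, against 15.6%). For uORFs with another first codon the split was 9.24% higher and 21.1% lower. The median log2 fold change was 0.04 over the member uORFs and 0.01 over all smORFs. The called uORFs fell into 735 overlap clusters and 665 host entries, so they are not 949 separate events. The counts of higher and of lower calls both varied when a single library was left out. Such a fit has 1 library in a group, so it cannot tell whether the calls rest on that library. The share called was 24.3% with both the purine and the G and 29.8% with neither, 28.9% at 6 to 10 amino acids and 34.8% at 81 to 150, and 28.4% for single-exon and 29.0% for spliced frames, given without a test.

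The member uORFs that rose with the smallest p had far fewer footprints before differentiation than after it, as this choice favours. The uORF of SLC26A3, the chloride and bicarbonate exchanger of the colonic brush border, had 9 and 3 counts in undifferentiated cells, 272 and 490 in differentiated control, 336 and 473 with micelles without lipid and 357 and 616 with lipid micelles. The groups were far apart, with 9.74 ± 6.23 CPM before and 585 ± 74.6 CPM after differentiation (SD, n = 2; log2 fold change 5.85 ± 0.38 SE, edgeR adjusted p = 2.35e-08). HHLA2, a B7 family ligand of T cells, went from 27 and 21 counts to 376 and 739 (log2 fold change 4.40 ± 0.29).

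GATM encodes the first enzyme of creatine synthesis. Its uORF IEC_19594 had 2 and 4 counts in undifferentiated cells and 108 and 178 in differentiated control (log2 fold change 5.41 ± 0.41, edgeR adjusted p = 6.95e-08), and 31 of its 63 bases lay in an annotated untranslated region. ST6GAL1, a sialyltransferase, had no count in either undifferentiated library and 55 and 76 in differentiated control. Against a floor of 3 counts per library this is at least 20.5-fold higher, and for the uORF of P4HA2, a collagen prolyl hydroxylase subunit with 2 and 2 counts before, it is at least 17.2-fold. The P4HA2 frame is one of the 48 without a PhyloCSF score. The others among the 12 most significant were in HPN (hepsin, a membrane serine protease), SULT1B1 (a sulfotransferase), PRLR (the prolactin receptor), SMPD3 (a neutral sphingomyelinase), NHSL1, PAM (an enzyme of peptide amidation) and PAG1 (a membrane adaptor). Their log2 fold changes ran from 2.85 (SULT1B1) to 4.37 (HPN).

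The uORF with the smallest p among those that fell was in AIMP1. This gene encodes a scaffold protein of the multi-tRNA synthetase complex, and its 99 amino acid uORF IEC_03241 had 441 and 308 counts in undifferentiated cells, 10 and 14 in differentiated control, 8 and 11 with micelles without lipid and 9 and 17 with lipid micelles, so that no differentiated library came near the undifferentiated ones (620.2 ± 103 against 18.9 ± 0.948 CPM, SD, n = 2; log2 fold change -5.03 ± 0.32, edgeR adjusted p = 2.20e-08). The other 6 member uORFs of AIMP1 start further downstream in the genome. One of them, IEC_12359, had 51 and 27 counts before and 16 and 34 after differentiation (log2 fold change -0.74 ± 0.37, edgeR adjusted p = 0.119), groups that overlap. IEC_12108, with 12 and 14 counts before and 4 and 4 after, fell as well, and 4 had too few counts to be tested.

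The uORF of UCP2, a mitochondrial carrier whose translation is known to be held back by its upstream frame, went from 697 and 535 to 109 and 184 counts (log2 fold change -2.17 ± 0.25). Those of SPAG5, a mitotic spindle protein, ECT2, a regulator of cytokinesis, and MRE11, a nuclease of DNA break repair, fell as well. SPAG5 had 266 and 192 counts before and 26 and 53 after, and ECT2 58 and 57 before and 4 and 6 after. In CAB39L the counts went from 84 and 72 to 0 and 2, at least 26.6-fold lower. Those of MRPL13, a mitochondrial ribosomal protein, SLC1A3, a glutamate transporter, FOXQ1, a forkhead transcription factor, and the entry ENSG00000233461;ENSG00000287856 complete the 10 outside multicopy genes, with log2 fold changes of -3.22 to -4.70. The uORF of that entry, IEC_23629, was placed in a transcript annotated as a long non-coding RNA, with no coding sequence. Of its 240 bases 131 lay in annotated untranslated regions. H3C8, a histone H3 gene (-3.63), and UBB, a polyubiquitin gene (174 and 140 counts before, 8 and 7 after, -4.44), have near-identical copies elsewhere in the genome, and their reads are uncertain.

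**Figure D3:**
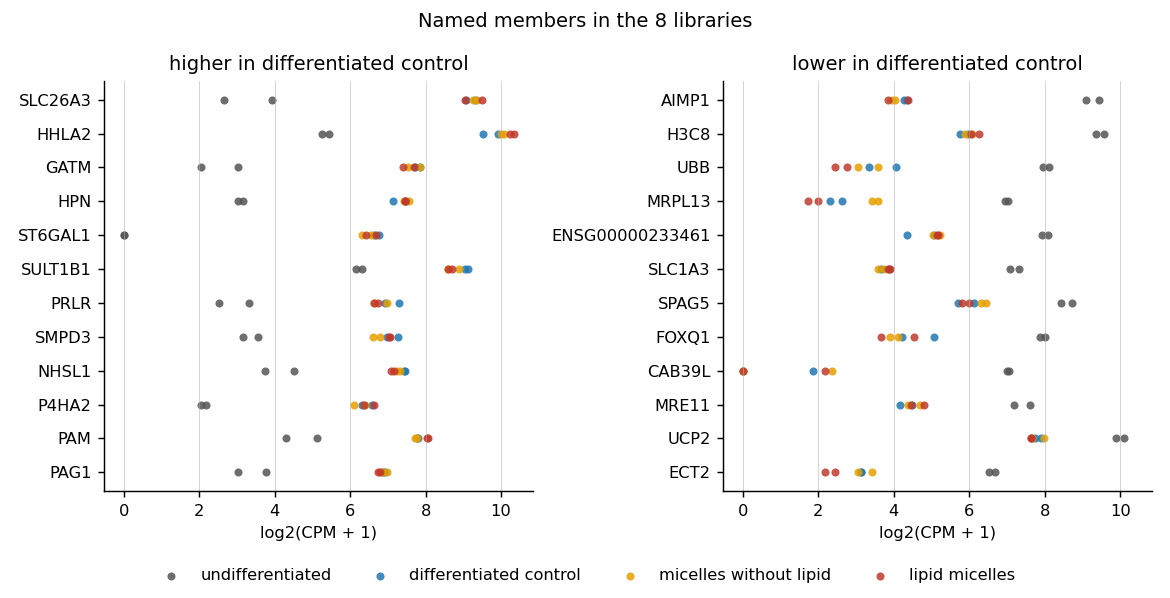
Level of the 12 member uORFs with the smallest p among those higher (left) and lower (right) in differentiated control than in undifferentiated cells, as log2(CPM + 1) on the x axis, 1 point for each of the 8 libraries and 1 row for each host gene. The undifferentiated libraries stand apart from the differentiated ones, as the choice by the smallest p in this comparison favours.

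Host genes of known function gave small groups of member uORFs. Of 34 enterocyte genes 8 had member uORFs and 10 uORFs of 6 genes were tested. In these, 7 were higher, 2 were lower and 1 was not called, with a median log2 fold change of 2.95 against 0.01 over all smORFs, or 1.63 with uORFs near 0 counts set at their bound. Over all smORFs 17.7% were higher and 15.6% lower. The 7 higher calls of the enterocyte list came from 4 overlap clusters. Besides those of SLC26A3 and GATM, the 2 uORFs of MYO1A, a microvillar myosin, rose, with log2 fold changes of 1.30 and 1.38. PDZK1, a scaffold of brush border transporters, went the other way. Its uORF IEC_18452 had 50 and 47 counts before and 10 and 14 after (log2 fold change -2.10 ± 0.37, edgeR adjusted p = 0.00033).

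Of 50 cell division genes 7 had member uORFs and 6 uORFs of 4 genes were tested, of which 2 fell and 4 were not called (median log2 fold change -0.68), a called share like the 33.3% over all smORFs. TPX2, a spindle assembly factor, had 69 and 37 counts before and 2 and 3 after, at least 17.8-fold lower, and ECT2 was the other. The uORFs of GMNN (0.00 and 0.59) and NCAPD2 (-0.10 and -1.27) did not pass. Among 31 sterol synthesis genes 11 had members. Of 15 uORFs tested 3 rose, where 17.7% of all smORFs did. They were in FDPS, the farnesyl diphosphate synthase (52 and 65 counts to 203 and 315, log2 fold change 2.03), MSMO1, a sterol demethylase (2.02), and INSIG2, which retains the sterol sensor in the endoplasmic reticulum (1.93). Those of SCAP (-0.07) and SQLE (-0.05) did not pass. For lipid absorption genes 2 overlapping uORFs of GPAM, the mitochondrial glycerol-3-phosphate acyltransferase, fell (-1.65 and -1.31) and 10 of 12 were not called. Of all smORFs 15.6% fell. By DESeq2 only 1 of the 12 lipid absorption uORFs fell. In the translation machinery 4 of 9 tested fell, where 15.6% of all smORFs did. They were those of EIF2S1 (log2 fold change -1.63), EIF3D (-1.24), EIF3B (at least 4.50-fold lower) and EEF1A1 (IEC_14820, at least 4.16-fold lower), and another EEF1A1 uORF, IEC_22919, rose (at least 3.24-fold). DESeq2 called 2 of the 9, both lower. EEF1A1 has many pseudogene copies, so its reads are uncertain, and only 12 of the 129 bases of the EIF3B frame lay in annotated untranslated regions.

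Genes known for control by uORFs gave the largest group, 33 tested uORFs of 15 genes in 20 clusters. Of these 8 rose, 1 fell and 24 were not called, a called share below the 33.3% over all smORFs, and by DESeq2 3 rose and 1 fell. UCP2 was the one that fell. IFNGR1, an interferon gamma receptor chain, rose from 22 and 19 to 50 and 78 counts (log2 fold change 1.54 ± 0.30), and PTP4A1, a phosphatase, from 8 and 14 to 38 and 42 (IEC_11367, 1.78 ± 0.40). For ERBB2, the receptor tyrosine kinase, IEC_10273 had 9 and 2 counts before and 19 and 24 after. AZIN1, the antizyme inhibitor of polyamine control, had 3 overlapping uORFs that rose by 1.07 to 1.11, while its IEC_15616 went from 130 and 135 to 107 and 169 counts (-0.05). The uORFs of the stress phosphatase subunits PPP1R15A (-0.25 and 0.35) and PPP1R15B (0.45 and -0.10), and of EIF5 (-0.34), did not pass the test. None of the 22 genes of other intestinal lineages had a member uORF.

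Within a host gene, member uORFs could be set beside other smORFs. In 539 host genes tested member uORFs and tested smORFs of other kinds did not overlap, and their mean log2 fold changes correlated with a Spearman coefficient of 0.633 (Pearson r 0.701). This is a correlation across genes of the same libraries and is given without a test. Of 306 host genes with 2 or more separate clusters of member uORFs tested, 66 had at least 2 called, all higher in 38 and all lower in 24. MGAT1, which encodes an enzyme of N-glycan processing, had the most member uORFs, 21 in 3 clusters. Of its 17 tested 2 were higher and none lower, with log2 fold changes from -0.44 to 1.58. ZC3H11A;ZBED6 had 16, of which 3 of 14 tested were higher. Over all smORFs tested 17.7% were higher and 15.6% lower. The entry ENSG00000233461;ENSG00000287856 had 13, as did RNF43, and all 13 of the former fell, but they form 1 overlap cluster and count the same footprints repeatedly. The transcript of its IEC_23629 is annotated as non-coding.

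**Figure D4:**
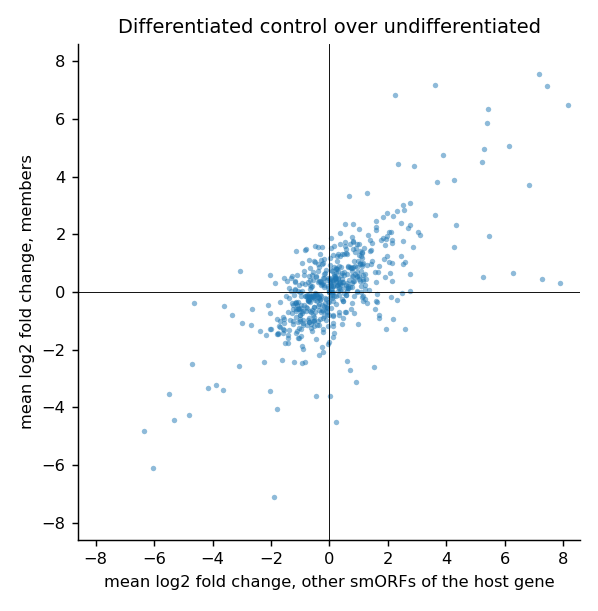
Mean log2 fold change of differentiated control over undifferentiated cells for the member uORFs of a host gene (y axis) against the other smORFs of the same gene that overlap none of them (x axis), 1 point for each of 539 host genes. Points follow the diagonal (Spearman coefficient 0.633), with some genes far from it.

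In 5 host genes, singled out after their values were seen, member uORFs were called in both directions. CLCN5 encodes an endosomal chloride and proton exchanger, and its uORFs lie in leaders whose starts are 145.0 kb apart. In the first leader IEC_04147 had 28 and 38 counts in undifferentiated cells and 2 and 5 in differentiated control (log2 fold change -3.31 ± 0.57, edgeR adjusted p = 0.00027). In the second leader IEC_04153 had 6 and 7 before and 32 and 77 after (2.91 ± 0.43, edgeR adjusted p = 6.00e-05). Its neighbours IEC_04154 (11 and 11 to 34 and 50) and IEC_04155 (13 and 18 to 53 and 87), which overlap each other, rose as well. In each of these 4 uORFs the 2 groups were apart.

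SPATS2L showed the same arrangement over 71.7 kb. IEC_05209 of the first leader had 105 and 91 counts before and 18 and 40 after differentiation (log2 fold change -1.87 ± 0.32), whereas IEC_05559 of the second had 1 and 1 before and 25 and 27 after, at least 8.36-fold higher. NET1, a guanine nucleotide exchange factor, had IEC_03097 at 11 and 16 counts before and 1 and 3 after, at least 4.68-fold lower, and 34.1 kb downstream IEC_04360 at 69 and 90 before and 234 and 332 after (1.73 ± 0.26). In these genes the uORFs that fell and those that rose thus lie far apart, in different annotated leaders. Whether use of the transcript starts changed was not tested.

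RNF168, a ubiquitin ligase of the DNA damage response, differed, since its 3 member uORFs follow one another within 1 leader region. The one nearest the 5′ end, IEC_15119, had 66 and 37 counts before and 1 and 18 after (log2 fold change -2.56 ± 0.69), the middle one 25 and 29 before and 10 and 26 after (not called), and IEC_15117 14 and 8 before and 16 and 42 after (1.26 ± 0.43). The differentiated values of IEC_15119 varied strongly with replicate number, at 1, 5 and 12 counts in replicate 1 and 18, 43 and 46 in replicate 2. EEF1A1 was the last of the 5.

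**Figure D5:**
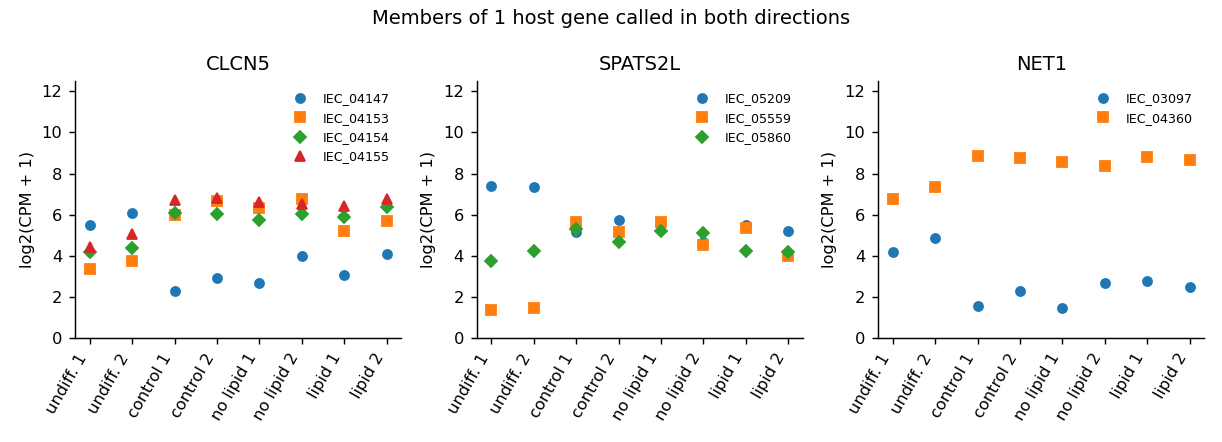
Level of the member uORFs of CLCN5, SPATS2L and NET1 in each of the 8 libraries, as log2(CPM + 1) on the y axis, 1 symbol for each uORF (undiff. = undifferentiated, control = differentiated control, no lipid = micelles without lipid, lipid = lipid micelles). IEC_04147, IEC_05209 and IEC_03097 are high in undifferentiated cells, and IEC_04153, IEC_05559 and IEC_04360 in differentiated ones, whatever the micelles.

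By the same rule no member uORF was called for micelles in the fit without a replicate block. Against differentiated control, micelles without lipid gave 0 called of 3321 tested (smallest edgeR adjusted p = 0.470), as over all smORFs (0% of 15182), and DESeq2 gave 0. Lipid micelles against differentiated control gave 0 (smallest edgeR adjusted p = 0.796; 0% of all smORFs; 0 by DESeq2), and lipid micelles against micelles without lipid gave 0 (smallest edgeR adjusted p = 0.999; 0% of all smORFs; 0 by DESeq2). Unadjusted p-values under 0.05 numbered 131, 145 and 121 (3.94%, 4.37% and 3.64% of the member uORFs tested), beside 4.08%, 4.66% and 4.11% of all smORFs. Both comparisons with differentiated control share those 2 libraries. The count of 0 for micelles without lipid was not stable, as 6 member uORFs were called without replicate 1 of those libraries, 2 without differentiated control replicate 2, 8 without a low-count filter and 2 (in RAD23B and MAN1A1) with the replicate number as a block. Without the filter the other comparisons called 1 each.

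The most significant member uORFs of each micelle comparison, none of them called, are given by their counts in the order differentiated control, micelles without lipid, lipid micelles. SREBF2, the sterol-responsive transcription factor, had 12 and 17, 55 and 45, and 25 and 40 counts at IEC_03424. This is a log2 fold change of 1.81 ± 0.38 for micelles without lipid over control (edgeR adjusted p = 0.470). Its other uORF, IEC_03425, had 7 and 16, 2 and 55, and 14 and 22 counts (1.24 ± 0.69 in the same comparison). SHISA5 had 19 and 21, 42 and 96, and 28 and 41 counts (1.73 ± 0.36 in the same comparison). In the other direction stood NHP2, a protein of small nucleolar ribonucleoproteins (-1.07 ± 0.31), and GPER1, with 8 and 12 counts in control and 1 and 1 with micelles without lipid (at least 3.26-fold lower, edgeR adjusted p = 0.881).

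For lipid micelles over control COX14, a cytochrome oxidase assembly factor, had 39 and 98, 80 and 114, and 169 and 211 counts (1.26 ± 0.27, edgeR adjusted p = 0.796), and FGG, a fibrinogen chain, 1.60 ± 0.44. In the other direction stood SCAF11, with 12 and 14, 9 and 5, and 2 and 1 counts (at least 5.24-fold lower), and HEXIM1 (-1.84 ± 0.44). Between the micelle groups RBM15B (1.70 ± 0.54) and RPTOR (1.98 ± 0.63) had positive and RDH10, a retinol dehydrogenase (-1.13 ± 0.30), and UBOX5;FASTKD5 (-1.58 ± 0.42) negative log2 fold changes with lipid, each with an edgeR adjusted p of 0.999. The 15 sterol synthesis uORFs had a median log2 fold change of 0.39 over control when the micelles held no lipid, 0.06 when they did, and -0.53 between the micelle groups. Over all smORFs these medians were 0.008, 0 and -0.012. The difference between the list and all smORFs was not tested. No list had a called uORF in any micelle comparison.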

How the data were processed

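Ribosome footprints of 8 Caco-2 libraries were counted by the authors in each smORF, and the deposited table holds raw counts per smORF. The submitters' processing notes name STAR 2.7.11a and HOMER. The build is hg38. How strand, multi-mapping reads and overlapping smORFs were treated is not given in the sources used here, and reads in overlapping smORFs can count for each. The deposited annotation gives a RibORF score (0.7 or higher here) and a mean PhyloCSF score for each smORF, both computed by the authors. Groups came from the sample labels.

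All smORFs were fitted together with edgeR 4.0.16 in R 4.3.3 (filterByExpr, TMM, quasi-likelihood test, Benjamini-Hochberg adjustment over 15182 smORFs, 8 libraries, 4 groups). A uORF was called where the adjusted p was below 0.05 and the log2 fold change reached 1 in size. DESeq2 1.42.0 was an alternative. Levels (CPM) are counts scaled to the library total of the smORFs past the filter, times the TMM factor. A group with 3 counts or fewer in each library gives a fold as a bound, from a floor of 3 counts per library. Start context was read from the hg38 genome and GENCODE release 44.

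Named were the 12 uORFs with the smallest p in each direction on differentiation, 2 in each direction for each micelle comparison, the 8 highest by mean CPM, the 3 host genes with most members, those nearest the PhyloCSF threshold and up to 4 called for each gene list, with 1 uORF per host gene outside the lists and none over a small RNA exon. Others are named for completing a list or, where said, after their values were seen. Members and lists were chosen with earlier results of these data known. Alternatives covered test, scaling, filter, overlap, member rule, left-out libraries and the replicate block. Counting intervals cover counting error only. Some members of the gene lists are counted but not reported by name here.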

Additional observations from a re-analysis of the deposited data

Results flagged for a closer look

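In 3 of the uORFs named for the comparison of lipid micelles with micelles without lipid, both libraries without lipid lay on one side of the differentiated control mean and both lipid libraries on the other. These uORFs were named for this comparison, so the difference was not tested independently, and none passed the test (edgeR adjusted p = 0.999 each). The uORF of RPTOR, a subunit of the mTORC1 kinase complex, had 10 and 9 counts in differentiated control, 2 and 4 with micelles without lipid and 14 and 15 with lipid micelles (log2 fold change between the micelle groups 1.98). That of RBM15B had 8 and 16, 4 and 4, and 13 and 19 counts in the same order (1.70). That of UBOX5;FASTKD5 had 12 and 29, 32 and 31, and 16 and 9 counts (-1.58).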

How the results depend on the processing

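Of 508 comparisons of a result with an alternative, 443 stayed on their side of the threshold or within the replicate spread and 65 moved. The 24 uORFs named for differentiation kept their call in all 264 comparisons. They were chosen by the smallest p on the same counts, which favours this, so it says nothing of the other calls. The 949 called on differentiation were 598 by DESeq2 (lower 273), 284 with 10 counts in every library (163 higher, 121 lower) and 558 with 1 smORF per overlap cluster (273 higher, 285 lower), where fewer smORFs were tested. Leaving out a library gave 679 to 1080 calls, 376 to 574 higher and 296 to 518 lower. The median log2 fold change was -0.043 without a low-count filter, 0.14 with 10 counts in every library and 0.0011 to 0.0896 without single libraries. Without the filter, micelles without lipid called 8, lipid micelles 1 and the comparison of micelle groups 1. Leaving out a library called 0 to 6 for micelles without lipid (6 without its replicate 1, 2 without differentiated control replicate 2) and 0 to 0 for the others, with medians of -0.0033 to 0.0692, -0.0890 to 0 and -0.118 to -0.0242.

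Replicate numbers were only shared numbers, since no label ties them to a batch and there are 2 per group. Deviations of same-numbered libraries correlated at 0.109 to 0.198 among the differentiated groups and -0.065 to 0.021 with undifferentiated cells. With the replicate block, differentiation gave 971 calls, lipid micelles 0, the comparison of micelle groups 0 and micelles without lipid 2, both over 6 and over all 8 libraries. The 2 over 6 libraries were in RAD23B (log2 fold change 1.82 ± 0.27, edgeR adjusted p = 0.0039) and MAN1A1 (2.82 ± 0.42, edgeR adjusted p = 0.0040).

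In the order undifferentiated, differentiated control, micelles without lipid and lipid micelles, mean detection was 3581, 3572, 3587 and 3708.5 at 5 counts, 1458, 1510, 1521.5 and 1707 at 20 counts, and 1403, 1423.5, 1431 and 1549.5 with 1 smORF per cluster. Thinned, it was 2197, 2178 and 2118.5 in the groups other than differentiated control. Mean shares were 22.5, 23.6, 22.8 and 22.3% with 1 smORF per cluster, 26.5, 27.8, 25.8 and 25.3% without overlaps, 22.6, 26.5, 26.7 and 25.0% of uORF class counts, and 51.0, 47.0, 46.4 and 43.6% in host genes with both kinds. Without the 10 highest smORFs they were 18.1, 19.5 and 19.1% in the first 3 groups, and for scored uORFs 17.7% in undifferentiated cells. With 1 smORF per cluster, 59.9% had the purine and 38.05% the G. DESeq2 called 1 for lipid absorption, 4 for genes known for uORF control and 2 for the translation machinery.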
